A study of Mus musculus with 2 samples.

Results

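The genes described here encode the catalytic core of Polycomb repressive complex 1 (PRC1): the ubiquitin ligases Ring1 (also called Ring1a) and Rnf2 (Ring1b), the Pcgf proteins that pair with them (Pcgf1, Pcgf2, Pcgf3, Bmi1, Pcgf5 and Pcgf6), and the adaptors Rybp and Yaf2. They were chosen by symbol, with earlier results of these data known. Of the 10 symbols, 9 had a row, 1 each, among the 20722 gene symbols of the table, and Yaf2 is not analysed here. Messenger RNA was sequenced from villi purified from mouse small intestine, the mucosal fingers that carry the differentiated epithelium. The dKO-labelled library came from C57BL/6 mice with the genotype Rosa26-CreERT2 Cdkn2a-/- Ring1a-/- Ring1bf/f, in which the Ring1 loss is constitutive and Rnf2 can be deleted by a tamoxifen-activated Cre. The control library came from C57BL/6 mice that were Rosa26-CreERT2 Cdkn2a-/-, so both groups carried the Cre and lacked Cdkn2a, and both were killed 6 days after 3 tamoxifen injections. The Rosa26 locus is active in most cell types, so Cre activity was not limited to the epithelium. Ages, sexes and the number of animals behind a library are not given in the labels.

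A PRC1 complex holds 1 ligase, Ring1 or Rnf2, bound to 1 of 6 Pcgf proteins, and it attaches ubiquitin to histone H2A. Bmi1 (Pcgf4) and Pcgf2 build canonical PRC1, which is brought to H3K27-methylated chromatin by Cbx proteins, whereas Pcgf1, Pcgf3, Pcgf5 and Pcgf6 build variant complexes with Rybp or Yaf2 that bind chromatin by other routes. In the intestine PRC1 is known for keeping developmental genes silent and for its part in maintaining stem cells, and Bmi1 has been used as a marker of slowly cycling crypt cells.

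Each genotype had 1 library, so differences between them have no replicate check and no test was possible. The dKO-labelled library held 1058196 reads and the control library 775827, summed over 22040 RefSeq transcripts. Values are whole reads recovered from the deposited normalised counts. A fold is dKO-labelled reads over control reads after scaling with the authors' size factors, whose ratio was 1.11, with an exact 95% Clopper-Pearson interval that covers counting error only. A gene was counted as measured at a mean normalised count of at least 20, and as higher or lower by size where the ratio of its normalised counts, with 1 added to each, reached 2-fold. That ratio lies closer to 1 than the printed fold, so a few genes have a printed fold just past 2 and are not counted. Over all 6001 measured genes the median log2 ratio was 0.51 on the log2(value + 1) scale, equal to a fold of 1.42, so a gene with equal normalised counts lies below the median gene.

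Promoters are shown for the genes that the comparison turns on: the targeted ligases Ring1 and Rnf2, and Bmi1 with its upstream neighbour Commd3. The windows run from 250 bases before to 50 bases after the RefSeq start (assembly GRCm38.p6, not the mm9 build of the table). They lie at chr17:34024631-34024930 (minus strand), chr1:151500942-151501241 (minus strand), chr2:18676768-18677067 (plus strand) and chr2:18672185-18672484 (plus strand). Sequences read 5′ to 3′, and capitals mark CpG dinucleotides, the features that Polycomb-bound promoters are rich in.
Ring1: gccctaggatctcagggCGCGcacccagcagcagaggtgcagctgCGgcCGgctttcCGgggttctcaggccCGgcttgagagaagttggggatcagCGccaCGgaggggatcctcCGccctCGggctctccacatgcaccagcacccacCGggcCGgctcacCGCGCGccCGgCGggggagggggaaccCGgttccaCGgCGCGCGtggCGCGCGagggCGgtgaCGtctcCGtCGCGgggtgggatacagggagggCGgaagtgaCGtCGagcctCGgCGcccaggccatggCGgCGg
Rnf2: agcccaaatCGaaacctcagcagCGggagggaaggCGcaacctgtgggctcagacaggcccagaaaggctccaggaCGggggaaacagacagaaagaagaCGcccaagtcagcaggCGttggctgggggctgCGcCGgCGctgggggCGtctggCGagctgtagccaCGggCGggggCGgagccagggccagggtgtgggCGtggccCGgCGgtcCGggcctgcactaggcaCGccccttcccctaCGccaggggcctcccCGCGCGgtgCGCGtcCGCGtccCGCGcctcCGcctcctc
Bmi1: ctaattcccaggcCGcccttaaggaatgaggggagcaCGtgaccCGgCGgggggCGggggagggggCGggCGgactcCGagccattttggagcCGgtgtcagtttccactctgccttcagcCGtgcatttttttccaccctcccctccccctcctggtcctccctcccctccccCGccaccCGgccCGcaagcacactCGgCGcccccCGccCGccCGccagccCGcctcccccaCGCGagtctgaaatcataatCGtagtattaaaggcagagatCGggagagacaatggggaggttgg
Commd3: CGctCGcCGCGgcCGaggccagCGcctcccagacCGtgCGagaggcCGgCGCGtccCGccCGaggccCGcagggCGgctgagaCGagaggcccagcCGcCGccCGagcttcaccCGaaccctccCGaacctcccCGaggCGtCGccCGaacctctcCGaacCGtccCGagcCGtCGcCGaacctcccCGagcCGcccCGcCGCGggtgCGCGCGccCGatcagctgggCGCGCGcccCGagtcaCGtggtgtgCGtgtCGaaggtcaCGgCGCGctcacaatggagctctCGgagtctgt
These windows held 37, 30, 23 and 51 CpG dinucleotides for Ring1, Rnf2, Bmi1 and Commd3, against a median of 7 over 32851 promoter windows of the same length. The 75th percentile over all windows was 20 CpG, so the 23 of Bmi1 lay only just above it. Promoters were at hand for 7 of the core genes. Pcgf3 had 23 CpG and Pcgf6 22, Pcgf2 had 10, and the annotated starts of Pcgf5 had 34, 5 and 35. The E-box CACGTG, the motif bound by Myc and Max family proteins, was found in the windows of Bmi1 (from base 36 of the window) and Commd3 (from base 243), and also in that of Pcgf2 (from base 114), and 7.15% of all windows held it. The letters TTTCCCGC, an E2F motif, and AAGATGGC, a YY1 motif, searched on both strands, were in none of the windows of these genes, and 1.07% and 2.75% of all windows held them.

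The targeted ligases come first because they bear on the labels. Ring1 (NM_009066) had 10 reads in the dKO-labelled library and 10 in the control library, a fold of 0.901 (0.337 to 2.41). The counts were equal, and at this depth a loss down to the lower limit lay within counting error. Rnf2 (NM_011277) had 82 reads in the dKO-labelled library and 59 in the control library, a fold of 1.25 (0.886 to 1.78). Neither ligase gene was lower beyond counting error. A count over a whole transcript does not show which exons its reads came from, and a deleted allele can still give RNA, so these values are no check of either allele. The 3′ end of Rnf2 overlaps that of Trmt1l, a tRNA methyltransferase-like gene on the opposite strand. How the counting treated strand is not stated, so reads over the shared stretch could not be assigned by strand. Trmt1l had 111 and 88 reads in the dKO-labelled and control libraries, a fold of 1.14 (0.852 to 1.52), close to that of Rnf2.

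Within a library, shares between genes do not depend on how the libraries are scaled. Of the reads of both ligases, Ring1 took 10.9% in the dKO-labelled library (exact 95% binomial interval 5.34 to 19.1) and 14.5% in the control library (7.17 to 25.04). Per length, Rnf2 was the more abundant ligase gene in both libraries, with 24.5 RPKM (reads per kb of transcript, scaled to the library's total reads, computed here) in the dKO-labelled library and 24.1 in the control library. Ring1 had 4.65 RPKM in the dKO-labelled library and 6.34 in the control library. The intervals of the ligases' RPKM did not overlap in either library.

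**Figure D1:**
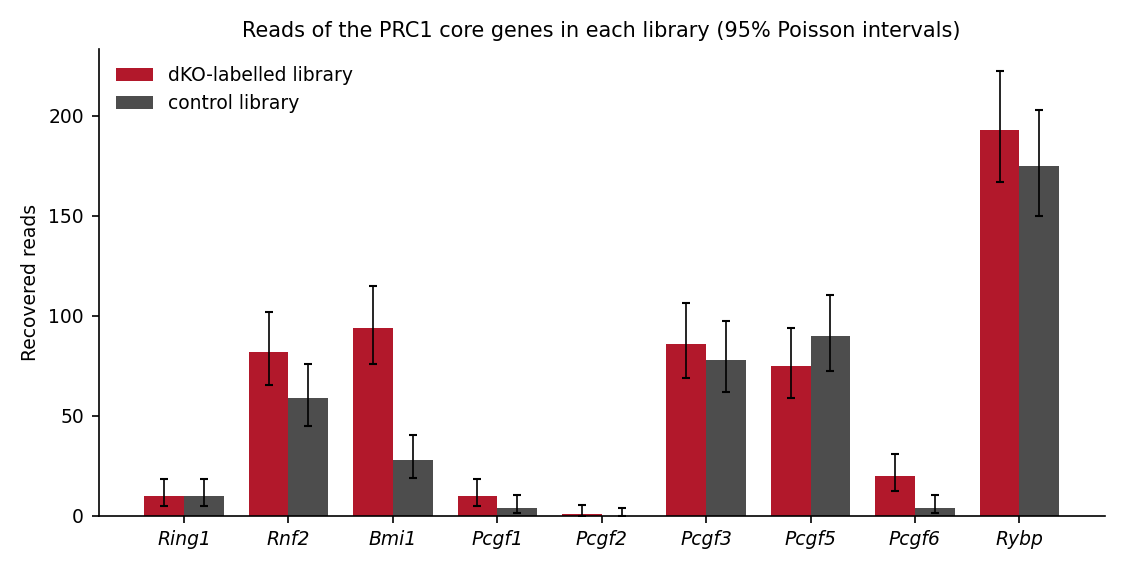
Recovered reads (y axis) of the 9 core genes with a row (x axis), with the dKO-labelled library in red and the control library in grey; bars are single libraries and whiskers exact 95% Poisson intervals. Bmi1, with 94 and 28 reads in the dKO-labelled and control libraries, and Pcgf6, with 20 and 4, have whiskers that do not overlap, and Rybp has the most reads in both libraries.

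Among the canonical Pcgf genes, Bmi1 (NM_007552) had 94 reads in the dKO-labelled library and 28 in the control library. Its fold was 3.03 (1.97 to 4.79), and it was the only one of the 5 measured core genes that was at least 2-fold higher, while 0 were at least 2-fold lower. Among all measured genes, 26.2% passed 2-fold in the higher direction and 4.18% in the lower direction, so 1 in 5 lies near the background. Relative to the median gene, the fold of Bmi1 was 2.13 (1.38 to 3.37), and on that scale 11.8% of measured genes passed 2-fold upward and 10.4% downward. In RPKM, Bmi1 stood at 24.7 in the dKO-labelled library and 10.04 in the control library. Its paralogue Pcgf2 (NM_009545) had 1 read in the dKO-labelled library and 0 in the control library, both under the floor of 3 reads, so no fold is given. Of the reads of both canonical Pcgf genes, Bmi1 took 98.9% (94.3 to 99.97) in the dKO-labelled library and all 28 in the control library, where a count of 0 allows Pcgf2 a share of up to 10.7% by the floor of 3 reads and 12.3% by the exact interval.

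The gene upstream of Bmi1 on the same strand, Commd3, which encodes a COMM domain protein, had 126 reads in the dKO-labelled library and 33 in the control library, a fold of 3.44 (2.33 to 5.21). Of the reads of Bmi1 and Commd3 together, Bmi1 took 42.7% (36.1 to 49.6) in the dKO-labelled library and 45.9% (33.1 to 59.2) in the control library. These shares overlap within counting error. Whether transcripts reading from Commd3 into Bmi1 contribute to either count was not tested.

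The variant Pcgf genes differed among themselves. Pcgf6 (NM_027654), whose protein assembles with the Mga and Max factors, had 20 reads in the dKO-labelled library and 4 in the control library, a fold of 4.51 (1.51 to 18.1). Pcgf1 (NM_197992), the Pcgf of the Kdm2b and Bcor complex, had 10 reads in the dKO-labelled library and 4 in the control library, and its fold of 2.25 had an interval of 0.650 to 9.84. Both had a mean normalised count under 20 and are not among the measured genes. Pcgf3 (NM_172716) had 86 reads in the dKO-labelled library and 78 in the control library, a fold of 0.994 (0.723 to 1.37). Pcgf5 (NM_029508), the closest relative of Pcgf3, had 75 reads in the dKO-labelled library and 90 in the control library, a fold of 0.751 (0.545 to 1.03). It was the one core gene with fewer reads in the deeper library. Relative to the median gene, Pcgf5 was at 0.529 (0.384 to 0.726) and Pcgf3 at 0.699 (0.509 to 0.963), both below 1 over their whole interval. On the table's own scale Pcgf5 carries an interval that includes 1, so a difference from 1 was not detectable there. A noncoding gene on the opposite strand overlaps an exon of Pcgf5 in the annotation, and its reads could not be told apart from those of Pcgf5 if strand was not used.

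**Figure D2:**
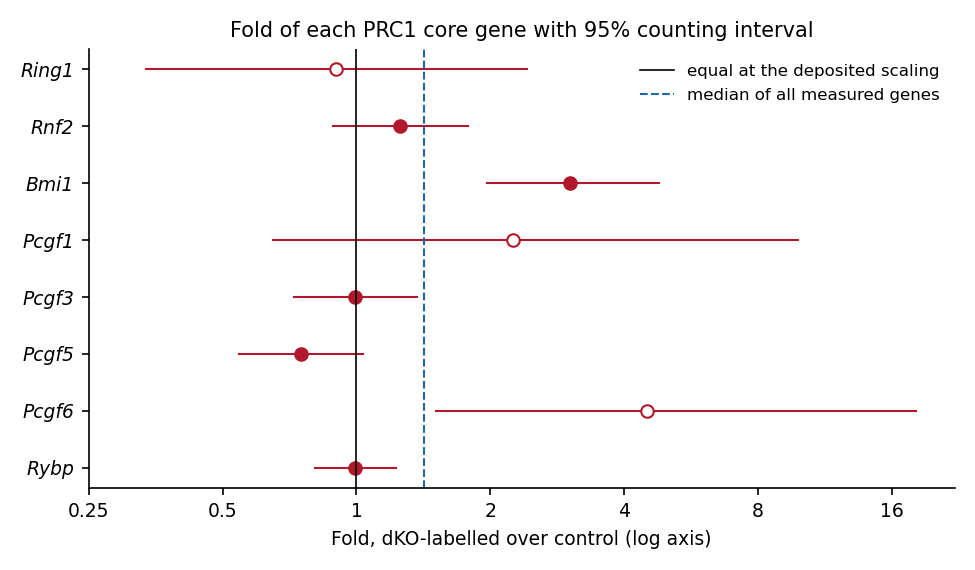
Fold of each core gene, dKO-labelled over control (x axis, log scale), with its exact 95% counting interval; filled points are measured genes, open points have a mean normalised count under 20, and Pcgf2 is left out at 1 and 0 reads. The intervals of Bmi1 and Pcgf6 lie right of both the line at 1 and the dashed line at 1.42, the median of measured genes, and those of Pcgf3, Pcgf5 and Rybp lie left of the dashed line.

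The make-up of the Pcgf reads differed between the libraries. Over the 6 Pcgf genes, 286 reads were recovered in the dKO-labelled library and 204 in the control library, a fold of 1.26 (1.05 to 1.52). Bmi1 took 32.9% of them (27.5 to 38.6) in the dKO-labelled library and 13.7% (9.32 to 19.2) in the control library. Pcgf5 took 26.2% (21.2 to 31.7) in the dKO-labelled library and 44.1% (37.2 to 51.2) in the control library. For both genes the intervals did not overlap. Shares of a common total move together, so a higher share of Bmi1 lowers that of Pcgf5, and these are not separate results. The fold of Pcgf5 itself, 0.751 (0.545 to 1.03), had an interval that includes 1. In the dKO-labelled library Bmi1 was the Pcgf gene with the most reads, and in the control library Pcgf5 was. Pcgf3 took 30.1% (24.8 to 35.7) in the dKO-labelled library and 38.2% (31.5 to 45.3) in the control library, and those intervals overlapped. So did those of Pcgf6, at 6.99% (4.32 to 10.6) in the dKO-labelled library and 1.96% (0.537 to 4.94) in the control library, and of Pcgf1, at 3.50% in the dKO-labelled library and 1.96% in the control library. Pcgf2 took 0.350% in the dKO-labelled library and 0 of 204 reads in the control library, which allows up to 1.47% by the floor and 1.79% by the exact interval. Beyond counting error, no spread between animals stands behind these shares.

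**Figure D3:**
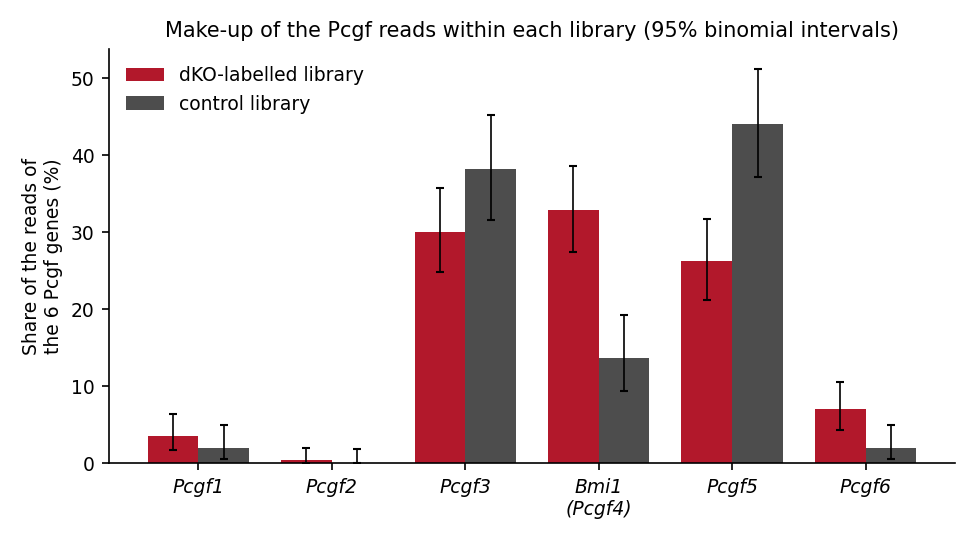
Share of each gene (x axis) in the reads of the 6 Pcgf genes of its library, in percent (y axis), dKO-labelled in red and control in grey; whiskers are exact 95% binomial intervals. Bmi1 stands at 32.9% and 13.7% and Pcgf5 at 26.2% and 44.1% in the dKO-labelled and control libraries, with whiskers that do not overlap.

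Read shares weight long transcripts more, so levels were also compared per length. With the transcript paired to each accession, Pcgf5 had the highest RPKM of the core genes, 47.0 in the dKO-labelled library and 76.9 in the control library. That value rests on a transcript of 1508 bases. With its longest annotated transcript of 6443 bases, Pcgf5 came to 11.0 RPKM in the dKO-labelled library and 18.0 in the control library, so its rank among the Pcgf genes depends on the transcript model. On this second scale Bmi1 led the Pcgf genes in the dKO-labelled library, with 38.9% of their length-scaled reads against 17.3% for Pcgf5. In the control library Pcgf5 led with 37.1%, against 20.7% for Bmi1. With the paired transcripts Pcgf5 led in both libraries, with 45.9% in the dKO-labelled library and 71.0% in the control library. Ordered by RPKM of the paired transcripts, the dKO-labelled library ran Pcgf5, Rybp, Bmi1, Rnf2, Pcgf1, Pcgf3, Pcgf6, Ring1 and Pcgf2. Intervals of neighbours in that order overlapped everywhere except between Rybp and Bmi1. The control library ran Pcgf5, Rybp, Rnf2, Pcgf3, Bmi1, Ring1, Pcgf1, Pcgf6 and Pcgf2, and there Pcgf5, Rybp and Rnf2 were each separated from the next gene by their intervals, while the later neighbours overlapped.

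Rybp (NM_019743), the adaptor that takes the place of Cbx proteins on the ligase, had the most reads of the core genes. It had 193 reads in the dKO-labelled library and 175 in the control library, a fold of 0.994 (0.806 to 1.23). Relative to the median gene, Rybp was at 0.700 (0.567 to 0.863), below 1 over its whole interval. In RPKM it stood at 40.5 in the dKO-labelled library and 50.1 in the control library. Of the reads of Rybp and both ligases, it took 67.7% (61.95 to 73.1) in the dKO-labelled library and 71.7% (65.6 to 77.3) in the control library, so the balance of adaptor to ligase reads overlapped within counting error.

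Over all 9 genes, 571 reads were recovered in the dKO-labelled library and 448 in the control library, a fold of 1.15 (1.01 to 1.30). Relative to the median gene it was 0.808 (0.713 to 0.917), and per total reads it was 0.934, so the direction of the sum follows the scaling. By role, the ligases came to 92 and 69 reads in the dKO-labelled and control libraries, the canonical Pcgf genes to 95 and 28, and the variant Pcgf genes to 191 and 176. The canonical sum was 3.06-fold (1.99 to 4.84) and the variant sum 0.978-fold (0.793 to 1.21). Bmi1 gave 94 of the 95 canonical reads and all 28, so that sum restates Bmi1. The variant sum is mostly Pcgf3 and Pcgf5, and Pcgf6 and Pcgf1 within it had folds of 4.51 and 2.25. These sums therefore show no contrast between canonical and variant genes as classes. The median log2 ratio of the 5 measured core genes was -0.01, against 0.51 over all measured genes. By counting intervals, 1 of 5 lay wholly above a fold of 1 and 0 wholly below, against 52.5% and 12.1% of all measured genes. Relative to the median gene, 1 of 5 lay wholly above and 3 wholly below, against 26.0% and 28.1%. In the authors' deposited table the smallest unadjusted DESeq p-value of a core gene was 0.274, for Bmi1, followed by 0.306 for Pcgf6, and with no replicates these p-values show neither presence nor absence of a difference.

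**Figure D4:**
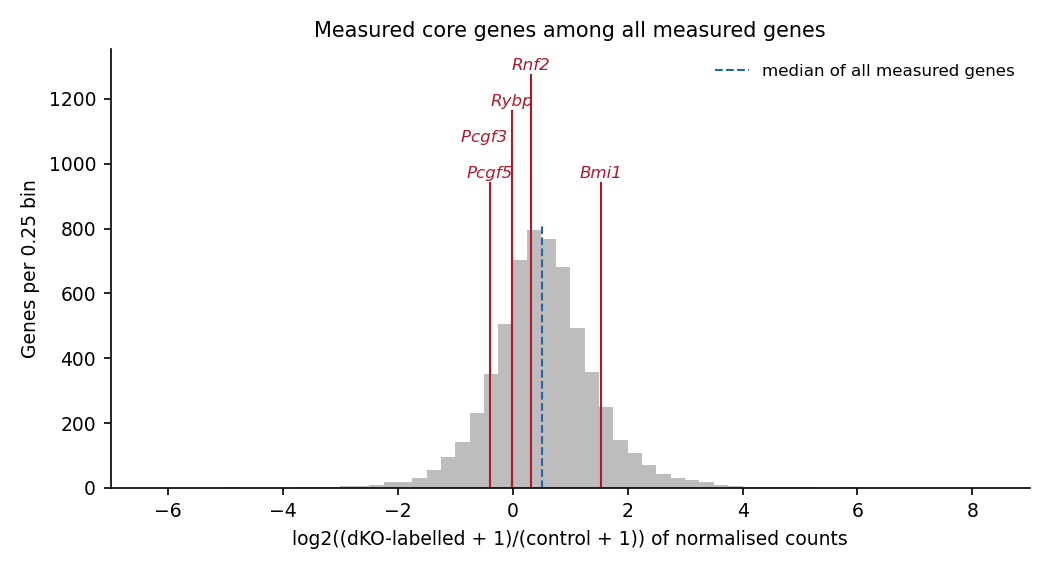
Number of measured genes (y axis) per bin of 0.25 in the log2 ratio, dKO-labelled over control (x axis), in grey, with the 5 measured core genes as red lines and the median of all 6001 as a dashed line at 0.51. Pcgf5, Pcgf3, Rybp and Rnf2 lie left of the median and Bmi1, at 1.53, lies right of it; Pcgf3 and Rybp nearly coincide.

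With Pcgf2 left aside, only Rnf2 changed sign with the scaling. Pcgf3 and Rybp ran from -0.01 with the deposited size factors to -0.64 and -0.65 with the upper quartile, and Ring1 from -0.14 to -0.72. The order of the genes by log2 ratio was the same under each scaling apart from Pcgf3 and Rybp, which nearly coincide. The log2 ratio of Rnf2 was 0.31 with the deposited size factors, 0.02 with total counts, -0.19 with the median gene set to 0, -0.21 with edgeR's TMM factors and -0.32 with the upper quartile. Bmi1 was above 0 under each of these scalings, between 0.90 and 1.53, and passed 2-fold under each except the upper quartile. Pcgf6 lay between 1.16 and 1.74. Pcgf5 was below 0 under each, between -1.04 and -0.40, and passed 2-fold lower with the upper quartile alone.

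**Figure D5:**
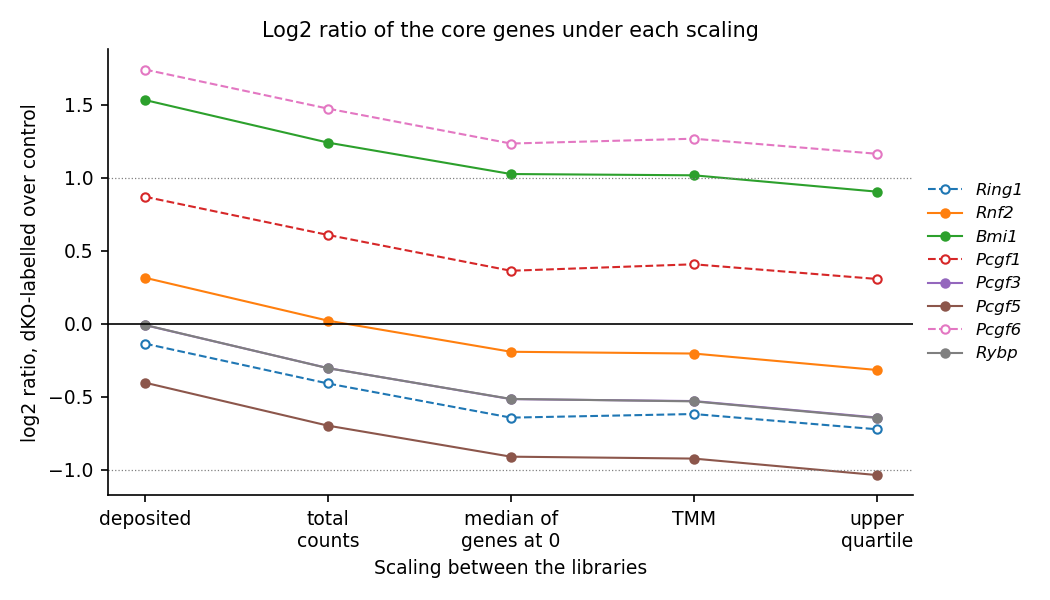
Log2 ratio, dKO-labelled over control (y axis), of 8 core genes under 5 scalings (x axis); solid lines with filled points are measured genes, dashed lines with open points are not, dotted lines mark 2-fold, and Pcgf3 lies under Rybp. Bmi1, Pcgf6 and Pcgf1 are above 0 and Pcgf5, Ring1, Pcgf3 and Rybp below 0 under each scaling, while Rnf2 changes sign. Pcgf3 and Rybp are both at -0.01 with the deposited scaling.

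Genes whose products work with the core were counted by the same rule. Of 11 canonical PRC1 partners (Cbx, Phc and Scm family genes), 3 were measured and 3 were at least 2-fold higher, against 26.2% of all measured genes, with a median log2 ratio of 2.15 against 0.51 over all measured genes. Cbx6, a Cbx subunit that reads methylated H3, had 52 reads in the dKO-labelled library and 9 in the control library (5.21-fold, 2.54 to 12.0). The Scm-like gene Scml4 had 62 reads in the dKO-labelled library and 18 in the control library (3.10-fold, 1.81 to 5.58).

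Of 21 variant PRC1 partners, 12 were measured, 4 were at least 2-fold higher and 0 lower, and the median log2 ratio was 0.80. Those higher were the deacetylase gene Hdac2 (35 reads in the dKO-labelled library and 5 in the control library, 6.31-fold, 2.46 to 20.6), the casein kinase 2 catalytic subunit Csnk2a2 (35 and 10, 3.15-fold), the heterochromatin protein gene Cbx3 (91 and 33, 2.49-fold) and the WD-repeat scaffold Wdr5 (66 and 25, 2.38-fold). Among all measured genes 26.2% passed in that direction, so 4 of 12 lies near the background. Relative to the median gene, 1 of the 12 passed, Hdac2, against 11.8% of all measured genes. Csnk2a2 fell just short at a log2 ratio of 0.98. The normalised control counts of Hdac2 and Csnk2a2 were 6.32 and 11.6, so both passed the mean limit of 20 only through the dKO-labelled library. The mean of Hdac2 was 20.2, just past that limit.

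Of 12 H2A deubiquitinase genes and their partners, which remove the mark that PRC1 sets, 10 were measured, 2 were higher and 0 lower, with a median log2 ratio of 0.56. Among all measured genes 26.2% passed upward, so 2 of 10 lies near the background. Relative to the median gene, 2 of the 10 passed, against 11.8% of all measured genes. Usp21, a deubiquitinase gene with 36 reads in the dKO-labelled library and 16 in the control library, had a printed fold of 2.03 and a log2 ratio of 0.93, just short of the rule. The higher ones were Foxk1 (46 reads in the dKO-labelled library and 9 in the control library, 4.61-fold, 2.23 to 10.7) and Hcfc1 (81 and 19, 3.84-fold, 2.31 to 6.71), which encode partners of the deubiquitinase Bap1. The normalised control counts of Foxk1 and Hcfc1 were 10.5 and 21.1. Foxk1 therefore passed the mean limit of 20 only through the dKO-labelled library. Bap1 itself had 88 reads in the dKO-labelled library and 67 in the control library (1.18-fold, 0.852 to 1.65), and the deubiquitinase gene Usp16 had 60 and 49 (1.10-fold, 0.744 to 1.64). Of 7 genes of ubiquitin supply, 4 were measured and 0 were past 2-fold in either direction, with a median log2 ratio of 0.20. Among all measured genes 26.2% passed upward and 4.18% downward, so with 4 genes a count of 0 does not set this list apart.

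Markers of other cell types differed between the libraries as well, and in bulk tissue more cells of a type and more RNA per cell cannot be told apart. The 11 villus enterocyte markers were all measured, with 15007 reads in the dKO-labelled library and 11933 in the control library (1.13-fold, 1.11 to 1.16). Enterocyte markers were thus abundant in both. Their summed fold lies below the 1.42 of the median gene, and per total reads the sum was lower in the dKO-labelled library. Its direction therefore follows the scaling. Relative to the median gene, the median log2 ratio of the 11 markers was -0.28. The markers did not move as one. The disaccharidase gene Sis was at least 2-fold higher, with 357 reads in the dKO-labelled library and 37 in the control library (8.70-fold). So was Lct, also a disaccharidase gene, with 847 and 184 (4.15-fold), and the other 9 were within 2-fold. Among all measured genes 26.2% passed upward, so 2 of 11 is not above the background. Relative to the median gene, 2 of the 11 passed upward, against 11.8% of all measured genes. The 10 fibroblast and smooth muscle markers with a row had 384 reads in the dKO-labelled library and 74 in the control library, a fold of 4.68 (3.64 to 6.08), with Dcn at 0 in both and Myh11 at 0 in the control library. The 6 crypt and stem cell markers had 112 reads in the dKO-labelled library and 23 in the control library (4.39-fold, 2.78 to 7.21), with Olfm4 at 0 in the control library. The 7 immune markers with a row had 112 and 62 reads in the dKO-labelled and control libraries, with Ptprc at 0 in both and Cd3e at 0 in the control library. The 4 endothelial markers with a row had 25 reads in the dKO-labelled library and 4 in the control library, where Cdh5 and Vwf were at 0. The fibroblast and muscle, crypt and endothelial sums were higher beside Bmi1, Pcgf6 and the canonical partners, and their part in those results was not tested. Xist, transcribed from the inactive X chromosome, had 1 read in the dKO-labelled library and 80 in the control library, and the Y-linked Ddx3y had 131 and 0, so sex and genotype label cannot be told apart.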

How the data were processed

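The members and the gene lists were chosen with earlier results of these data known. Villus RNA was made into libraries, 1 per genotype, with the TruSeq RNA kit v2, per the labels' protocols. Per the submitters' processing notes, the tools were TopHat and DESeq on build mm9, without versions. Which counter was used, and with what duplicate and strand settings, is not stated. Per the file headers, the deposited signal columns are base means, that is normalised read counts, for 22040 RefSeq transcripts. The authors' deposited fold (ratio) and log2 columns compare them, and the authors' deposited p-value column is unadjusted.

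All values (100%, within 0.001 of a step) were whole multiples of the lowest value of their column, and none was 0. They are read as counts with 1 read added before scaling, an inference from the values, and reads were recovered as steps minus 1: 1058196 in the dKO-labelled library and 775827 in the control library. For a symbol with several rows, the highest-mean row was used. Calls used log2((dKO + 1)/(control + 1)) at a mean of at least 20. Folds, shares and sums used recovered reads, with 3 reads put in place of a count of 0. The named genes were all members and, from each list, up to 4 measured genes past 2-fold with the largest absolute log2 ratio; Bap1, Usp16, Usp21, Trmt1l, Commd3, Xist and Ddx3y were added after their values were seen. A gene that the rule names is not reported here.

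Transcript lengths came from GENCODE M21 (GRCm38), paired by RefSeq accession. Those models can differ from the mm9 ones. Neighbouring genes were read from the same annotation, and promoter sequences are RefSeq's (GRCm38.p6). Intervals cover counting error only, since reads without molecular identifiers are not independent molecules. The functions were tested on simulated data. Python 3.11.15, pandas 2.3.3, numpy 2.4.6, scipy 1.17.1, matplotlib 3.10.9, and edgeR 4.0.16 in R 4.3.3 (for TMM scaling alone) were used. Alternatives were 4 scalings, other pseudocounts, filters and call rules, and summed rows.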

Additional observations from a re-analysis of the deposited data

How the results depend on the processing

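No paired analysis was possible because each genotype had 1 library, and replicates could not be left out for the same reason. With the pseudocount of 5, the added read taken off, or rows summed, the counts of calls stayed within 1.5 times. Members at least 2-fold higher numbered 1, against 0 by upper-quartile scaling, 2 where a mean of 10 was enough and 2 unfiltered; members lower numbered 0, against 1 with the upper quartile (Pcgf5). The fold of the summed member reads, 1.15, was 0.934 by total counts, 0.737 by the upper quartile, 0.798 by TMM and 0.808 against the median gene, and without Rybp it stayed within its interval. All measured genes higher and lower numbered 1574 and 251. Total-count scaling gave 972 and 436, the upper quartile 528 and 818, TMM 657 and 665, and the median gene 711 and 626. A mean limit of 50 gave 761 and 164, no filter 3704 and 892, a 1.5-fold rule 2755 and 527, and the counting interval 3148 and 729.

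Canonical partners higher numbered 3, against 0 at a mean of at least 50, where 0 were measured, and 6 with no filter. Variant partners higher numbered 4, against 1 by total counts, 0 by the upper quartile, 0 by TMM, 1 against the median gene, 1 under a mean limit of 50, 7 unfiltered, 8 at 1.5-fold and 11 by the counting interval. Deubiquitinase genes higher numbered 2, against 0 at a mean of at least 50, 4 at 1.5-fold and 4 by the counting interval. Ubiquitin supply genes higher numbered 0, against 1 at 1.5-fold and 1 by the counting interval. At 1.5-fold and by the counting interval, these last 3 lists had 12, 10 and 4 measured genes. Of all 6001 measured genes, 2755 passed upward at 1.5-fold and 3148, or 52.5%, by the counting interval. Unfiltered, the variant partners had 19 genes, and 3704 of all 20722 genes passed upward. Before the 1 is added, the scalings lower every log2 ratio by 0.30 (total counts), 0.64 (upper quartile), 0.53 (TMM) and 0.51 (median gene), and with it the genes of few reads shift less under the first 3, Pcgf2 to 0.32, 0.12 and 0.19 against 0.50. The shares of Ring1 among the ligase reads and of Bmi1 among the canonical Pcgf reads stayed within their intervals per kb, with summed rows and with the deposited values. The share of Bmi1 among the reads of the 6 Pcgf genes was higher in the dKO-labelled library than in the control library, and that of Pcgf5 lower, under each of these and with the longest transcripts, a setting chosen after seeing the data. Depth limits Ring1, Pcgf1, Pcgf2 and Pcgf6, with at most 20 reads in a library.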
